A study of Capra hircus with 4 samples.

Results

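The genes described here are 10 genes of inflammatory signalling and neutrophil biology: the chemokines CXCL8 and CXCL10, the cytokine OSM, the growth factor AREG, the alarmins S100A8 and S100A9, the NF-kB inhibitor NFKBIA, the adhesion molecule ICAM1 and the receptors CSF3R and CXCR2. They were taken by symbol from a list of 27137 genes, and each symbol stood on 1 line of it. The study dissociated the pancreas of 4 female Liuyang black goats, twins by the labels, into single cells, 2 animals at 6 months of age, when they ruminate, and 2 at 10 days, before rumination. The tissue was digested with collagenase IV, dispase and DNase, passed through red cell lysis and dead cell removal, and sequenced as 10x Genomics libraries, so neutrophils and other fragile cells had to survive these steps to be counted. The labels give no treatment, no genetic change and no enrichment for any kind of cell. A suffix of each barcode, 1 to 4, marks its library, but which goat a suffix belongs to is not stated. Libraries are therefore called by that number, and 6 months was not compared with 10 days.

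Inflamed tissue recruits white blood cells in a set order of signals. NF-kB is a transcription factor held in the cytoplasm by inhibitors such as the product of NFKBIA, and once released it switches on chemokine, cytokine and adhesion genes and also NFKBIA itself, which ends the signal. The CXCL8 protein draws neutrophils through the receptors CXCR1 and CXCR2, and the CXCL10 protein, made in answer to interferon, draws activated T cells through CXCR3. ICAM1 on vessel walls and on other cells is the ligand that leukocyte integrins grip. Neutrophils and young monocytes carry S100A8 and S100A9 in large amounts, and neutrophils also depend on G-CSF, whose receptor is the product of CSF3R.

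Values are deposited UMI counts, 1 UMI standing for 1 captured RNA molecule, summed over the cells of a class in a library and given as counts per 1000000 UMIs of that class (CPM). Intervals are exact 95% Poisson intervals and cover counting error only. The libraries held between 43297855 and 82817057 UMIs and gave 13216 cells (2813, 3324, 3996 and 3083 in libraries 1 to 4). The median cell had 6174, 8935, 7960.5 and 8185 UMIs. Of these cells, 34 carried one of 17 barcode sequences that occurred in more than 1 library. Immune-like cells numbered 266, 33, 98 and 814 in libraries 1 to 4, which was 9.46%, 0.993%, 2.45% and 26.4% of the cells called. The neutrophil part of the members' common label was checked against marker genes that did not include the members. No cluster could be named neutrophil-like at the depth thresholds of the libraries. The cluster that carried neutrophil markers among immune cells had 7 of 15 neutrophil markers raised and also 10 of 15 macrophage markers, and it was led by FCN1, S100A8, AREG, EREG and OSM. It is called FCN1-led here, it held 34, 3, 21 and 408 cells in libraries 1 to 4, and 408 of its 466 cells thus came from library 4. Macrophage-like cells, with 13 of 15 macrophage markers raised and 1 of 15 neutrophil markers, numbered 117, 14, 62 and 196. The remaining immune-like cells were T/NK-like (67, 2, 1 and 137), dendritic-like (23, 14, 10 and 25) and B/plasma-like (25, 0, 4 and 48). Library 4 stood apart also in its free RNA, taken from barcodes with 10 to 100 UMIs, where 1 transcript without a gene name, LOC108634769, took 70.4% of the UMIs, against 10.7% to 23.8% in the other libraries. Levels are given for classes with at least 20 cells in a library unless a cell number stands beside them. A level of 0 stands for 0 counts and allows up to 3 counts, which is between 0.0988 CPM for the deepest of these classes and 24.6 CPM for the shallowest.

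The members were spread over the cell classes in different ways. CXCL8 and NFKBIA were high in both FCN1-led and macrophage-like cells, OSM, AREG, S100A8, S100A9 and CSF3R were highest in FCN1-led cells, CXCL10 was highest in macrophage-like and dendritic-like cells, and ICAM1 reached well into stellate-like, ductal-like and endothelial-like cells.

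**Figure D1:**
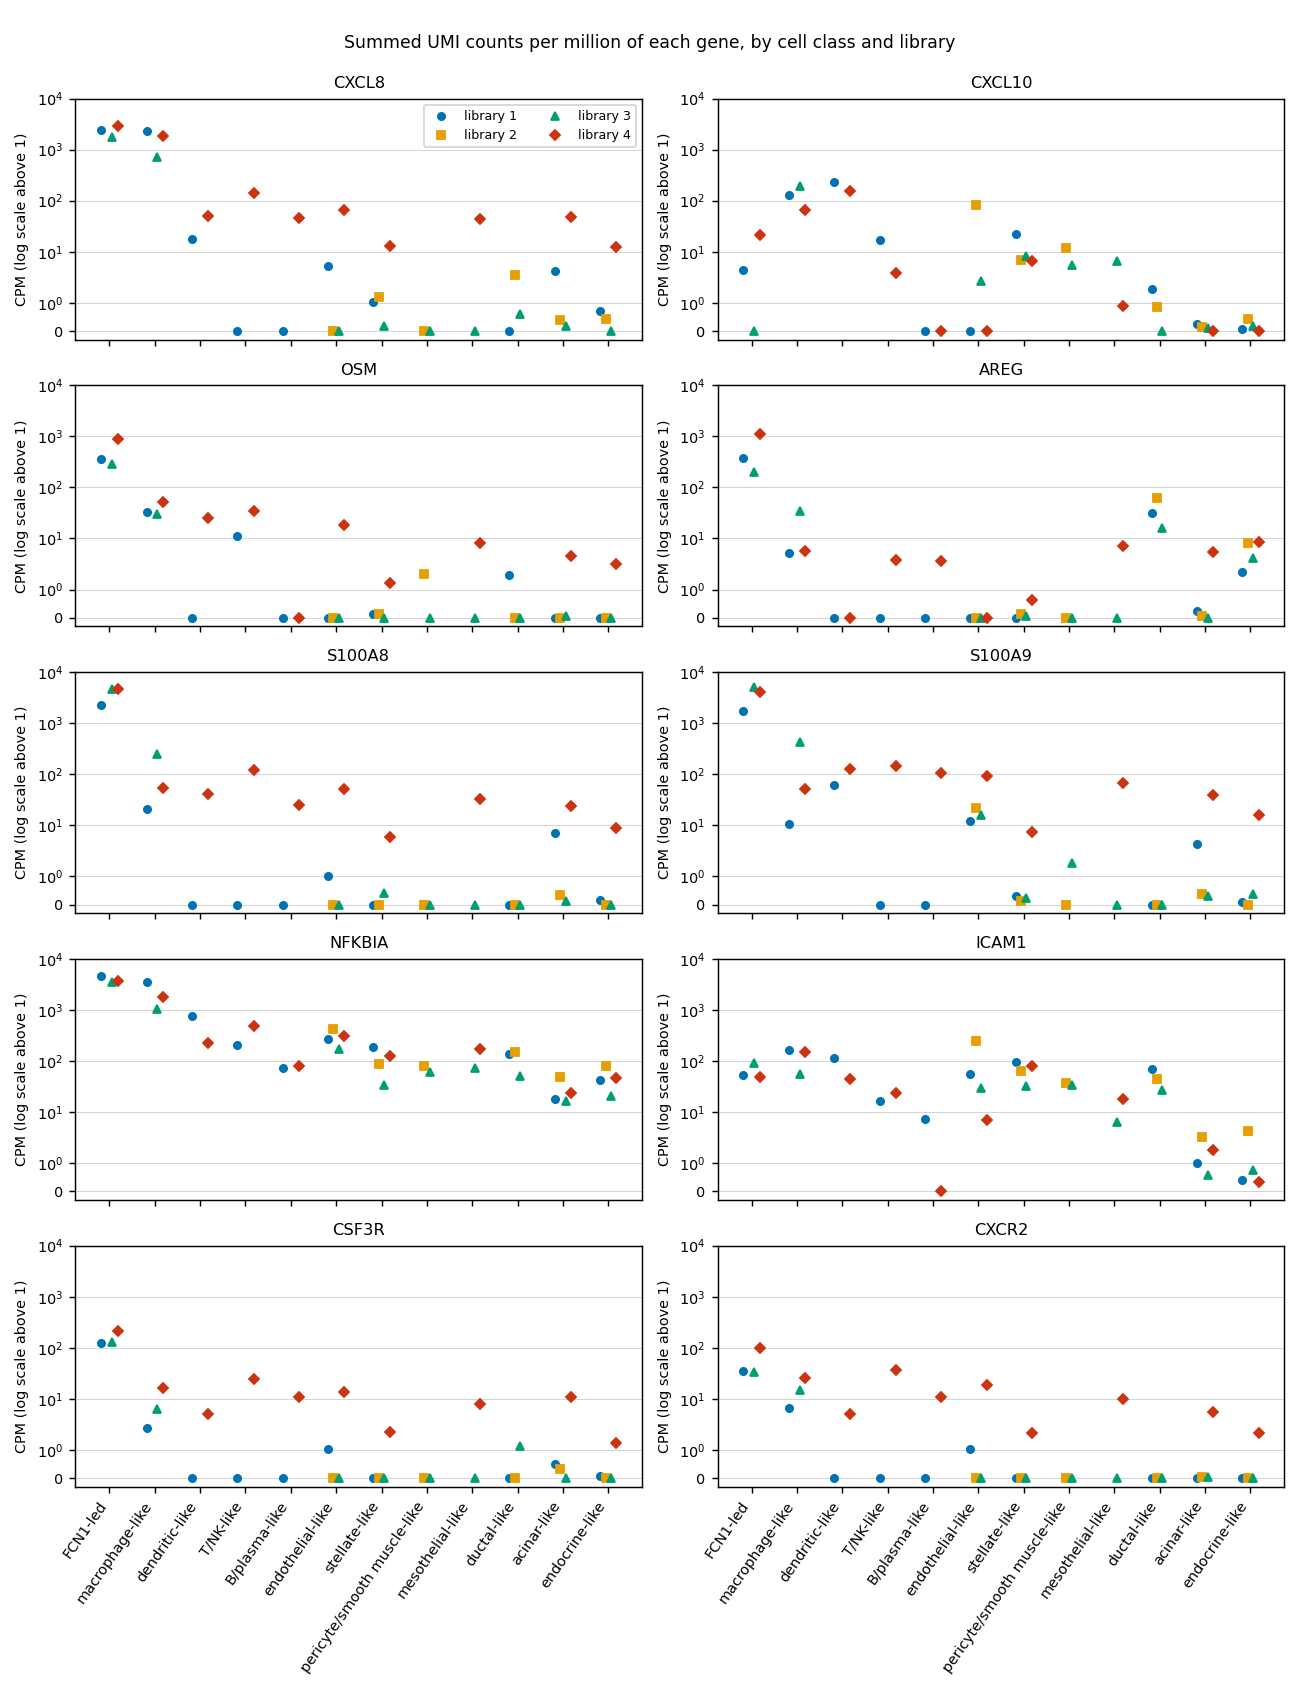
Level of each of the 10 members in CPM (vertical axis, log scale above 1 and linear below) in 12 classes of cells (horizontal axis), 1 point for each library with at least 20 cells of the class. S100A8 stood between 2248 and 4762 CPM in FCN1-led cells, whereas the points of ICAM1 lie high also in stellate-like, ductal-like and dendritic-like cells.

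CXCL8, the neutrophil-attracting chemokine, had 2378, 1798 and 2869 CPM in FCN1-led cells of libraries 1, 3 and 4 (intervals 2183 to 2586, 1568 to 2053 and 2811 to 2928). Macrophage-like cells had 2266, 709.2 and 1880 CPM in the same libraries, and 1887 CPM from 186 counts in 14 cells of library 2. Both classes were thus high in each library, and their ranges over libraries overlapped. Every other named class had at most 17.8 CPM of CXCL8 in libraries 1 to 3. In library 4 all named classes with at least 20 cells had counts of it. The level was 143.6 CPM in T/NK-like, 66.4 in endothelial-like, 50.2 in dendritic-like, 47.9 in acinar-like, 12.9 in stellate-like and 12.6 in endocrine-like cells. Free RNA of library 4 held 404.0 CPM of CXCL8, against 65.7, 31.2 and 5.85 CPM in libraries 1 to 3. Without LOC108634769 in the total it held 1363 CPM, against 77.9, 35.0 and 7.68 CPM. The part of free RNA in the low levels of library 4 was not tested. FCN1-led and macrophage-like cells together held most CXCL8 counts of the called cells: over libraries 1 to 4, FCN1-led cells had 23.0%, 19.4%, 39.2% and 66.2% of them and macrophage-like cells 72.3%, 66.9%, 59.7% and 21.2%.

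Neither class was uniform in CXCL8. When clustered more finely, macrophage-like cells led by CLEC7A and TREM2 had 2928 CPM in library 1 (72 cells) and 2714 CPM in library 4 (111 cells). Those led by SIGLEC1 and CD5L, a sialic acid receptor and a secreted macrophage protein, had 1097, 564.4 and 522.2 CPM in libraries 1, 3 and 4 (45, 47 and 83 cells). The first group was above the second in both libraries that held both. FCN1-led cells divided too: 37 of the 408 in library 4 fell into a finer cluster led by EBI3 and ACOD1, with 267.4 CPM of CXCL8 and 150.4 CPM of S100A8, against 3074 and 4925 CPM in the other 371. These groups come from clusters of the same cells, so the values are a description.

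CXCL10, the interferon-induced chemokine of T cell recruitment, had 131.8, 193.2 and 66.1 CPM in macrophage-like cells of libraries 1, 3 and 4, and 213.0 CPM from 21 counts in 14 cells of library 2. Dendritic-like cells had 231.7 CPM (52 counts in 23 cells) in library 1 and 155.5 CPM (31 counts in 25 cells) in library 4. FCN1-led cells had 1 count in library 1 (4.34 CPM), 0 counts in library 3, which allows up to 24.6 CPM at 3 counts, and 21.3 CPM in library 4. The order was thus the reverse of that for the alarmins, with CXCL10 lower in FCN1-led cells in each library compared. A few cells carried much of it: in libraries 1, 3 and 4 the top 2 macrophage-like cells held 55 of 100 counts, 77 of 91 and 42 of 106.

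Outside the immune cells, CXCL10 was low in stellate-like cells, at 22.3, 7.00, 8.22 and 6.43 CPM in libraries 1 to 4, and at most 0.421 CPM in endocrine-like and acinar-like cells. Because stellate-like cells are numerous, they still held 48.3%, 23.4%, 48.8% and 17.7% of the CXCL10 counts of called cells. Endothelial-like cells had 82.8 CPM (100 counts, interval 67.4 to 100.7) in library 2, against 0, 2.65 and 0 CPM in libraries 1, 3 and 4. Library 2 alone thus had endothelial CXCL10 above a few counts. Nearly all of these counts lay in the endothelial-like cluster with PLVAP, FLT1 and VWF, genes of blood vessel lining, at 133.6 CPM (99 counts), against 1 count in the cluster led by CCL21 and LYVE1, genes of lymphatic vessels, at 2.14 CPM.

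OSM, oncostatin M, a cytokine of the IL-6 family that acts on stromal and epithelial cells, had 355.9, 287.4 and 895.9 CPM in FCN1-led cells of libraries 1, 3 and 4 (82, 35 and 2940 counts). Macrophage-like cells had 33.0, 29.7 and 53.0 CPM, and T/NK-like cells 11.2 CPM in library 1 and 34.6 CPM in library 4. The ranges of FCN1-led and macrophage-like cells did not overlap. In libraries 1 to 3, acinar-like, endocrine-like and stellate-like cells had at most 1 count of OSM each. In library 4 they had 4.61, 3.20 and 1.36 CPM, beside 66.6 CPM in free RNA, or 224.5 CPM without LOC108634769. FCN1-led cells held 71.3%, 57.1%, 70.0% and 86.1% of the OSM counts of called cells in libraries 1 to 4, although they were at most 13.2% of the cells.

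AREG, amphiregulin, a ligand of the EGF receptor made by leukocytes and by epithelium, was found in both kinds of cell. FCN1-led cells had 373.2, 205.3 and 1091 CPM in libraries 1, 3 and 4 (86, 25 and 3580 counts). Ductal-like cells had 32.3, 63.5 and 16.1 CPM in libraries 1 to 3 (17, 74 and 27 counts), and 176.6 CPM from 31 counts in 11 cells of library 4. Endocrine-like cells followed with 2.25, 8.28, 4.07 and 8.72 CPM. These 3 classes came in this order without overlap of their ranges. Macrophage-like cells had 5.27, 34.0 and 5.61 CPM in libraries 1, 3 and 4 (4, 16 and 9 counts). Their range overlapped with those of ductal-like and endocrine-like cells. Endothelial-like and dendritic-like cells had 0 counts of AREG in every library. Library 2 had 3 FCN1-led cells, and there ductal-like cells held 46.8% and endocrine-like cells 37.3% of the AREG counts, against 12.7% in FCN1-led cells. In library 4, FCN1-led cells held 89.2% of them. An endocrine-like cluster led by genes of cell division had 52.3 CPM in library 2, from 14 counts in 22 cells, and 7.89 CPM in library 3, from 13 counts in 123 cells.

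S100A8 and S100A9, which pair to form calprotectin, a metal-binding protein of neutrophils and monocytes, marked FCN1-led cells most sharply. S100A8 had 2248, 4762 and 4577 CPM in FCN1-led cells of libraries 1, 3 and 4, against 21.1, 248.4 and 53.0 CPM in macrophage-like cells. S100A9 had 1758, 5008 and 4008 CPM in FCN1-led cells, against 10.5, 433.2 and 51.8 CPM in macrophage-like cells. The ranges of the 2 classes did not overlap for either gene. The macrophage-like level of library 3 rested on few cells, since 2 of its 62 cells held 116 of 117 S100A8 counts and 192 of 204 S100A9 counts.

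The other named classes had almost no S100A8 in libraries 1 to 3, with at most 7.17 CPM. In library 4 they had between 5.81 CPM in stellate-like and 119.3 CPM in T/NK-like cells. Free RNA held 214.6 CPM of S100A8 in that library, or 723.9 CPM without LOC108634769, and 10.6, 4.55 and 5.85 CPM in libraries 1 to 3. S100A9 differed from S100A8 in one further class. Endothelial-like cells had 12.4, 21.5, 15.9 and 91.6 CPM of S100A9 in libraries 1 to 4, but 1.03, 0, 0 and 50.4 CPM of S100A8. Within that class the CCL21 and LYVE1 cluster had 15.8, 49.3 and 88.5 CPM of S100A9 in libraries 1, 2 and 4 (11, 23 and 35 counts), and the PLVAP, FLT1 and VWF cluster had 3.64, 4.05 and 0 CPM in libraries 1, 2 and 3. Dendritic-like cells also had S100A9 without S100A8 in library 1, at 62.4 CPM (14 counts) beside 0 counts. Free RNA held 11.7, 4.55, 8.78 and 288.1 CPM of S100A9 in libraries 1 to 4, and its part in these levels was not tested. B/plasma-like cells of library 4 had 107.8 CPM of S100A9, so the endothelial-like level of that library was not particular to the class. S100A8 and S100A9 lie on chromosome 3 of the RefSeq assembly ARS1.2 with 1 gene between them.

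NFKBIA, the inhibitor that NF-kB induces against itself, was detected in every class. FCN1-led cells had 4561, 3514 and 3725 CPM in libraries 1, 3 and 4, and macrophage-like cells 3588, 1051 and 1788 CPM. Dendritic-like cells had 770.7 CPM in library 1 and 220.8 CPM in library 4, and T/NK-like cells 203.7 and 487.3 CPM. The step from macrophage-like to dendritic-like cells was free of overlap, whereas FCN1-led and macrophage-like ranges overlapped. Outside the immune cells, endothelial-like cells were highest, at 270.3, 419.1, 172.1 and 306.7 CPM, and acinar-like cells lowest, at 18.0, 47.9, 16.4 and 24.0 CPM. In stellate-like cells NFKBIA differed over libraries by more than its counting error, at 186.9, 86.9, 33.1 and 127.4 CPM, with library 3 lowest (interval 29.9 to 36.6). Library 3 also had the lowest NFKBIA in macrophage-like, FCN1-led, ductal-like, endocrine-like, acinar-like and endothelial-like cells, and the lowest free RNA level, at 23.4 CPM, against 130.0, 79.0 and 222.7 CPM in libraries 1, 2 and 4.

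ICAM1, the integrin ligand of leukocyte adhesion, was the member least restricted to immune cells. It had 166.1, 55.2 and 149.7 CPM in macrophage-like cells of libraries 1, 3 and 4, and 115.8 and 45.2 CPM in dendritic-like cells of libraries 1 and 4. FCN1-led cells had 52.1, 90.3 and 47.8 CPM, from 12, 11 and 157 counts. Stellate-like cells had 96.9, 62.6, 31.7 and 78.4 CPM in libraries 1 to 4, and ductal-like cells 70.3, 44.6 and 26.8 CPM in libraries 1 to 3. Over libraries the ranges of these 5 classes overlapped one with the next. Within a library, macrophage-like cells were above stellate-like cells in libraries 1, 3 and 4, with intervals that did not overlap, for instance 36.1 to 80.9 against 28.6 to 35.1 CPM in library 3. Stellate-like cells were above ductal-like cells in libraries 1 to 3, with intervals that overlapped in each. Acinar-like and endocrine-like cells lay far below, between 0.320 and 4.21 CPM. By number, stellate-like cells held 70.1%, 43.5%, 72.6% and 53.5% of the ICAM1 counts of called cells.

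Endothelial ICAM1 varied more over libraries than that of any other class with 4 libraries, at 54.7, 246.0, 29.1 and 6.87 CPM, the last from 3 counts. The PLVAP, FLT1 and VWF cluster had 156.4, 392.7 and 43.4 CPM in libraries 1, 2 and 3. The CCL21 and LYVE1 cluster had 14.4 and 12.9 CPM in libraries 1 and 2, and 0 counts in library 4. The first cluster was thus above the second in both libraries that held at least 20 cells of each. In library 4, 54 of the 60 endothelial-like cells belonged to the second. In the first cluster library 2, which had its CXCL10 counts, was also highest for ICAM1 and for NFKBIA, at 583.0 CPM against 389.3 and 173.7 CPM in libraries 1 and 3.

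**Figure D2:**
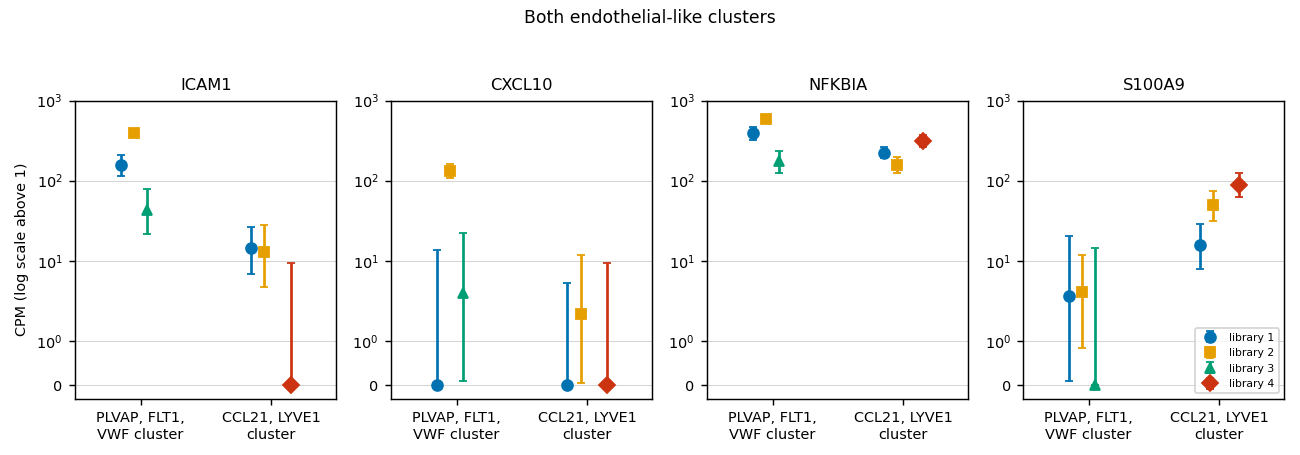
CPM of ICAM1, CXCL10, NFKBIA and S100A9 (vertical axes, log scale above 1 and linear below) in the endothelial-like cluster with PLVAP, FLT1 and VWF and in the one with CCL21 and LYVE1, 1 point per library with at least 20 cells and 95% Poisson bars. ICAM1 is higher in the first cluster (392.7 against 12.9 CPM in library 2), and S100A9 in the second (49.3 against 4.05 CPM in library 2).

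CSF3R and CXCR2, the receptors for G-CSF and for CXCL8, had few counts in called cells. CSF3R had 125.9, 131.4 and 214.2 CPM in FCN1-led cells of libraries 1, 3 and 4 (29, 16 and 703 counts), against 2.64, 6.37 and 16.2 CPM in macrophage-like cells (2, 3 and 26 counts). The ranges did not overlap. CXCR2 had 34.7, 32.8 and 100.9 CPM in FCN1-led cells (8, 4 and 331 counts), against 6.59, 14.9 and 25.6 CPM in macrophage-like cells (5, 7 and 41 counts). The CXCR2 value was higher in FCN1-led than in macrophage-like cells in each of these libraries, but it rested on few counts in libraries 1 and 3. No order is read from library 3. T/NK-like cells of library 4 had 37.2 CPM, so that the range of FCN1-led cells overlapped with theirs. In library 3, 16 of the 21 CSF3R counts of called cells lay in FCN1-led cells. Called cells held only 14 counts of CSF3R in library 2, and 3 and 12 counts of CXCR2 in libraries 2 and 3, so FCN1-led and macrophage-like cells could not be ordered there at this depth.

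Shares of cells with at least 1 UMI were compared after each cell was thinned to 3000 UMIs, because depth differs between classes. FCN1-led cells had median depths of 6435.5, 5706 and 8222.5 UMIs in libraries 1, 3 and 4, and macrophage-like cells 5618, 6821.5 and 7204.5. After thinning, S100A8 was seen in 79.4%, 95.2% and 88.7% of FCN1-led cells, against 0.855%, 3.23% and 4.59% of macrophage-like cells (before thinning 85.3%, 95.2% and 91.9%, against 1.71%, 4.84% and 11.7%). Acinar-like cells, which should lack S100A8, gave at most 0.269% in libraries 1 and 3 and 7.14% in library 4 after thinning, at median depths of 7631.5, 17283.5 and 11370 UMIs in libraries 1, 3 and 4. The macrophage-like share of library 4 was below this background although its level was higher, at 53.0 CPM against 24.0 CPM in acinar-like cells, so no order between them is read. OSM was seen in 52.9%, 38.1% and 77.9% of FCN1-led cells, against 5.98%, 8.06% and 10.7% of macrophage-like cells (before thinning 73.5%, 47.6% and 88.7%, against 12.8%, 12.9% and 20.4%). Acinar-like cells gave at most 0.123% for OSM in libraries 1 and 3 and 1.43% in library 4, or 2.86% there before thinning.

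AREG was seen in 38.2%, 28.6% and 70.6% of FCN1-led cells after thinning, against 1.71%, 3.23% and 0.510% of macrophage-like cells (before thinning 47.1%, 33.3% and 77.5%, against 3.42%, 3.23% and 3.06%). Acinar-like cells gave at most 0.269% for AREG in libraries 1 and 3 and 2.86% in library 4, or 5.71% there before thinning, so the macrophage-like share of library 4 is read as background. CXCL8 was seen in 73.5%, 81.0% and 84.1% of FCN1-led cells, against 73.5%, 33.9% and 60.2% of macrophage-like cells, with 1.88%, 0.246% and 15.7% in acinar-like cells (before thinning 82.4%, 81.0% and 89.2%, against 76.1%, 48.4% and 66.8%, with 2.69%, 0.369% and 24.3%). CXCL8 thus marked most cells of both classes except in library 3, where it was seen in a minority of macrophage-like cells. ICAM1 was seen in 23.3%, 18.2%, 8.31% and 20.1% of stellate-like cells of libraries 1 to 4, against 0.148%, 0.842%, 0.580% and 0.297% of endocrine-like cells (before thinning 35.3%, 34.3%, 18.7% and 36.8%, against 0.742%, 3.65%, 0.774% and 0.593%), at median depths of 4885.5, 6793, 6717 and 8054 UMIs against 14949.5, 8580, 8673.5 and 16871. Stellate-like ICAM1 was thus far above the share in cells that have little of it, in each library.

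Within FCN1-led cells the share in which both genes of a pair were seen differed between pairs. That share depends on how often each gene was seen, and overlap beyond this was not tested. In library 4, for instance, CXCL8 was seen in 343 and NFKBIA in 388 of the 408 cells, but CSF3R in 166 and CXCR2 in 92. After thinning, S100A8 and S100A9 were both seen in 67.6%, 90.5% and 85.0% of these cells in libraries 1, 3 and 4, and CXCL8 and NFKBIA in 73.5%, 76.2% and 83.1%. AREG and OSM were seen together in 60.3% of the 408 cells of library 4, but in 23.5% and 14.3% of the 34 and 21 cells of libraries 1 and 3. Both receptors, CSF3R and CXCR2, were seen in 5.88%, 4.76% and 15.0%, and both CXCL8 and CXCL10 in 1 cell, 0 cells and 7 cells. Of the 196 macrophage-like cells of library 4, 105 (53.6%) had both CXCL8 and NFKBIA. CXCL8 and CXCL10 were seen together in 7, where CXCL10 was seen in only 11 cells.

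Immune-like cells were then set against all other named classes inside each library. A gene was called when its log2 ratio on the scale log2(CPM + 1) reached 1, or -1, in every library used, and the higher class had 20 or more counts in each. Of the 10 members, 7 could be called in all 4 libraries and 7 were called higher, where 4.24% of the 13243 genes measured were called higher and 11.7% lower. CXCL8, S100A8 and S100A9 had 6, 7 and 19 counts in the other named cells of library 3, so they could be called only upward. The median log2 ratio was 8.99 for CXCL8 (6.79 to 9.45 over libraries), 7.94 for S100A8 (6.88 to 9.75), 7.57 for S100A9 (6.56 to 9.66), 4.69 for NFKBIA (4.05 to 5.68), 4.40 for AREG (4.02 to 6.23), 4.35 for CXCL10 (3.43 to 5.26) and 1.93 for ICAM1 (1.22 to 3.24). OSM (5.92), CSF3R (4.30) and CXCR2 (3.55) were higher in each library too, but had under 20 counts in at least 1 of them. The median over all 10 members was 4.54, beside 0.08 over the genes measured. AREG lost its call when 10% of free RNA was subtracted, with a median of 4.46 and too few counts left. ICAM1 lost its call with a minimum of 1000 UMIs per cell (1.49) and with the mean of the cells' own CPM (1.31). Without library 2, which had 33 immune-like cells, OSM was called as well (6.13).

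**Figure D3:**
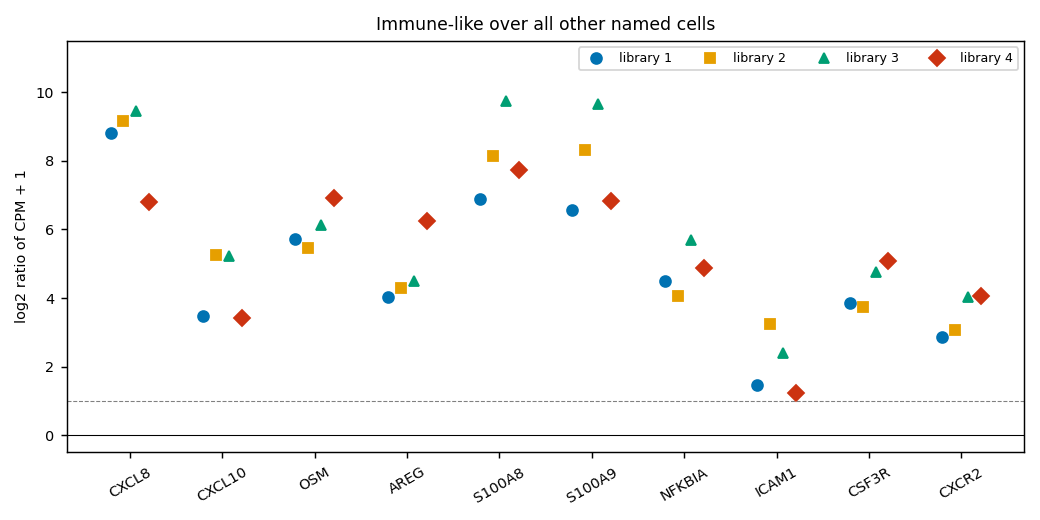
Log2 ratio of CPM + 1 of immune-like over other named cells (vertical axis) for each member (horizontal axis), 1 point per library, with a dashed line at the call limit of 1. CXCL8 has the highest median (8.99), and ICAM1 lies nearest the line (median 1.93).

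FCN1-led cells against macrophage-like cells is the comparison in which the members parted. In the 3 libraries with at least 20 cells of each (1, 3 and 4), 4 members were called higher in FCN1-led cells and 1 lower, with 3 not called and 2 short of counts, where 2.32% of the 3657 genes measured were called higher and 8.78% lower. S100A8 had a median log2 ratio of 6.41 (4.26 to 6.67), S100A9 6.25 (3.53 to 7.25), AREG 5.90 (2.56 to 7.37) and OSM 3.39 (3.23 to 4.05). CXCL10 was lower, at -4.64 (-7.60 to -1.59). S100A8, S100A9, AREG and OSM each had under 20 counts in macrophage-like cells of library 1 or 3, and CXCL10 in FCN1-led cells. These members could therefore be called in only 1 direction. CXCL8 had 0.61 (0.07 to 1.34), NFKBIA 1.06 (0.35 to 1.74) and ICAM1 -1.63 (-1.65 to 0.70). CSF3R, at 4.17 (3.64 to 5.12), and CXCR2, at 1.94 (1.09 to 2.23), were higher in all 3 libraries with too few counts for a call.

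The FCN1-led cluster itself was drawn without the members among the clustering genes, but it was chosen for this comparison after its leading genes, some of them members, had been seen. With a minimum of 1000 UMIs, 7 members were called higher of 9 measured, with 2.12% of all genes, and the additions were CXCL8 (1.26), NFKBIA (1.24) and CSF3R (4.22). Without library 3, ICAM1 was called lower (-1.64) beside CXCL10, and CSF3R higher (4.39). Without library 1, NFKBIA was called higher (1.40).

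**Figure D4:**
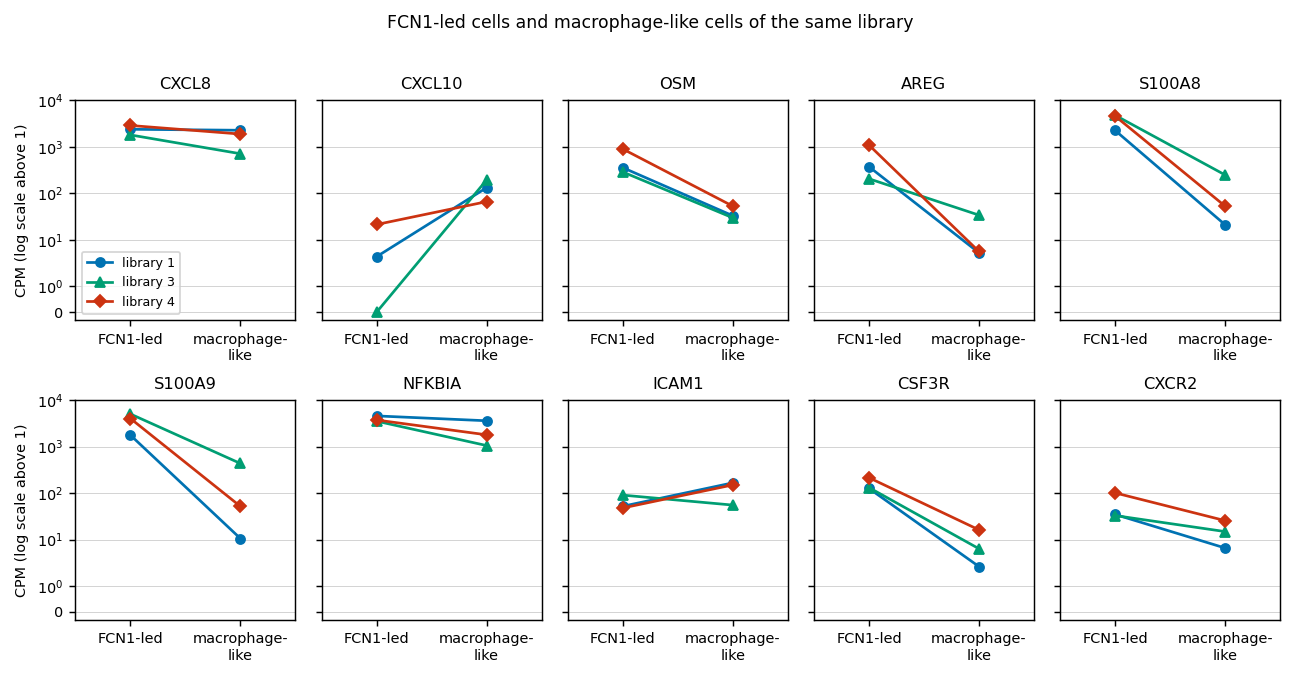
CPM of each member (vertical axis, log scale above 1 and linear below) in FCN1-led cells (left) and macrophage-like cells (right), with lines joining the same library (1, 3 and 4). The lines of S100A8, S100A9, AREG and OSM fall to the right, those of CXCL10 climb, and those of CXCL8 differ less (2378 and 2266 CPM in library 1).

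Myeloid cells, FCN1-led and macrophage-like together, were set against lymphoid-like cells, T/NK-like and B/plasma-like, in libraries 1 and 4, which alone held at least 20 of each. Of the 10 members 9 were called higher, where 19.5% of the 6083 genes measured were called higher and 6.12% lower. In library 1 NFKBIA alone had 20 or more counts in lymphoid-like cells (103). The other called members were thus measured through their myeloid counts and could be called only upward, so their count is not read against the 19.5%. The medians over the pair of libraries ran from 2.83 for ICAM1 to 7.79 for CXCL8, with AREG at 6.89, S100A8 at 7.05, S100A9 at 6.52, OSM at 4.34, NFKBIA at 3.92, CSF3R at 3.90 and CXCL10 at 3.41. CXCR2, at 2.56, was not called because library 1 had 13 counts of it in myeloid cells and 0 in lymphoid-like cells, and it was called in library 4 alone (1.30). The range was wide for CXCL8, with 11.16 in library 1 and 4.42 in library 4. Lymphoid-like cells had 0 counts of CXCL8 in library 1, and 143.6 CPM (T/NK-like) and 46.7 CPM (B/plasma-like) in library 4, where free RNA was rich in it.

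Endothelial-like cells against stellate-like cells gave 0 calls among the members, of which 3 were measured, where 4.43% of the 10124 genes measured were called higher and 6.63% lower. NFKBIA was higher in 4 of 4 libraries, with a median of 1.76 (0.53 to 2.34). ICAM1, at -0.47 (-3.34 to 1.96), and CXCL10, at -2.12 (-4.54 to 3.39), were higher in 1 library, library 2. S100A9 was higher in 4 of 4 libraries (3.60, 3.37 to 4.30) but short of counts, and it was called when no minimum of counts was set. Without library 1 NFKBIA was called higher (2.26), and without library 2 CXCL10 was called lower (-2.89).

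Ductal-like cells against acinar-like cells were compared in libraries 1 to 3. ICAM1, at 4.14 (3.41 to 5.16), and NFKBIA, at 1.63 (1.55 to 2.83), were called higher, but so were 58.3% of the 5141 genes measured, with 1.73% lower, and the median gene stood at 1.76. Relative to that shift ICAM1 kept its call, at 2.39, and NFKBIA did not, at 0.06. ICAM1 had 4 and 10 counts in acinar-like cells of libraries 1 and 3, so it could be called only upward. With TMM scaling NFKBIA turned to -0.18. AREG was higher in 3 of 3 libraries (4.74, 4.09 to 5.92), with 17 counts in ductal-like cells of library 1, which left it short of the minimum. Without library 1 it was called higher (5.01).

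Shallow barcodes changed the picture for the neutrophil genes. In library 4, called cells held 14.9% of the 6569 CSF3R counts of all barcodes and 11.1% of the 5678 CXCR2 counts, against 53.2% for NFKBIA and 73.2% for ICAM1. With a minimum of 1000 UMIs in place of the library thresholds, a cluster of 1085 cells appeared, 1084 of them in library 4, that met the naming rule as neutrophil-like. It had 12 of 13 immune markers, 6 of 15 neutrophil markers and 3 of 15 macrophage markers raised, CXCR1 and TARM1 were among its leading genes, and its median depth was 1247 UMIs. It held 32.5% of all CSF3R counts of the library and 39.1% of all CXCR2 counts. Since 1 library holds it, its values have no replicate, and no test was made.

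CSF3R had 1464 CPM in neutrophil-like cells (2134 counts, interval 1403 to 1528), against 228.0 CPM in FCN1-led and 16.1 CPM in macrophage-like cells of library 4 at the same minimum. CXCR2 had 1525 CPM (2222 counts, interval 1462 to 1590), against 115.0 CPM in FCN1-led and 21.0 CPM in macrophage-like cells. Neutrophil-like cells were thus well above both other classes for both receptors. S100A9 had 12478 CPM, against 4132 and 89.1 CPM, and S100A8 7427 CPM, against 4648 and 77.8 CPM, in FCN1-led and macrophage-like cells in that order. CXCL8 had 7052 CPM, against 2831 and 1397 CPM, and OSM 1215 CPM, against 904.1 and 56.4 CPM. These 4 genes therefore rank neutrophil-like, FCN1-led, macrophage-like, with OSM and S100A8 differing by less than log2 1 between the first and the second.

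AREG and ICAM1 did not follow that order. AREG had 533.2 CPM in neutrophil-like cells, against 1133 CPM in FCN1-led and 18.1 CPM in macrophage-like cells. ICAM1 had 22.6 CPM (33 counts), against 48.9 and 122.5 CPM. NFKBIA had 3422 CPM, against 3668 and 1554 CPM. CXCL10 had 0 counts among 1457281 UMIs, which allows up to 2.06 CPM at 3 counts. FCN1-led cells had 17.2 CPM (interval 13.2 to 22.0) and macrophage-like cells 73.4 CPM (interval 63.1 to 84.8). These values are 8.36-fold and 35.6-fold above 2.06 CPM, folds that leave out the counting error of the 2 classes.

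Against FCN1-led cells 4 of 10 members passed log2 1 upward in neutrophil-like cells, CXCR2 (3.72), CSF3R (2.68), S100A9 (1.59) and CXCL8 (1.32), where 14.4% of the 8743 genes measured did. Downward, 3 passed it, CXCL10, AREG (-1.09) and ICAM1 (-1.08), where 49.0% of genes did. The median gene stood at -0.94. Relative to that shift S100A8 stood at 1.62, OSM at 1.37, NFKBIA at 0.84, ICAM1 at -0.14, AREG at -0.15 and CXCL10 at -3.25. The shares of 14.4% and 49.0% belong to the ratios before that shift, so they are no background for these values. Against macrophage-like cells 8 members were higher and 2 lower, CXCL10 and ICAM1 (-2.39), where 15.2% of the 8981 genes measured were higher and 54.2% lower. The 8 ratios ran from 1.14 for NFKBIA to 7.11 for S100A9.

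After thinning to 1000 UMIs, CXCR2 was seen in 76.8% of neutrophil-like cells (interval 74.2% to 79.3%), 15.1% of FCN1-led and 1.14% of macrophage-like cells, with 3.22% in endocrine-like cells, which should lack it (before thinning 83.9%, 32.0%, 8.22% and 9.06%). CSF3R was seen in 75.2%, 22.7% and 2.28%, with 3.88% in endocrine-like cells (before thinning 82.5%, 57.1%, 6.85% and 10.1%). The macrophage-like shares of both receptors were below the endocrine-like ones, whereas the macrophage-like levels of 21.0 CPM for CXCR2 and 16.1 CPM for CSF3R were above the endocrine-like 11.9 and 12.9 CPM, so no order between these classes is read. Endocrine-like cells of library 4 themselves had 2.16 CPM of CXCR2 and 1.36 CPM of CSF3R at the library thresholds, below their level at this minimum. AREG was seen in 18.4% of neutrophil-like cells, against 51.3% of FCN1-led cells, with 5.90% in endocrine-like cells (before thinning 21.3%, 75.7% and 15.3%). Median depths were 1247 UMIs in neutrophil-like, 5063 in FCN1-led, 4486.5 in macrophage-like and 4355 in endocrine-like cells. Both receptors were seen in the same cell in 624 of the 1084 neutrophil-like cells (57.6%), AREG and OSM in 98 (9.04%), and S100A8 and S100A9 in 1000 (92.3%). CSF3R was seen in 815 of these cells in all and CXCR2 in 833, and overlap beyond that was not tested.

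**Figure D5:**
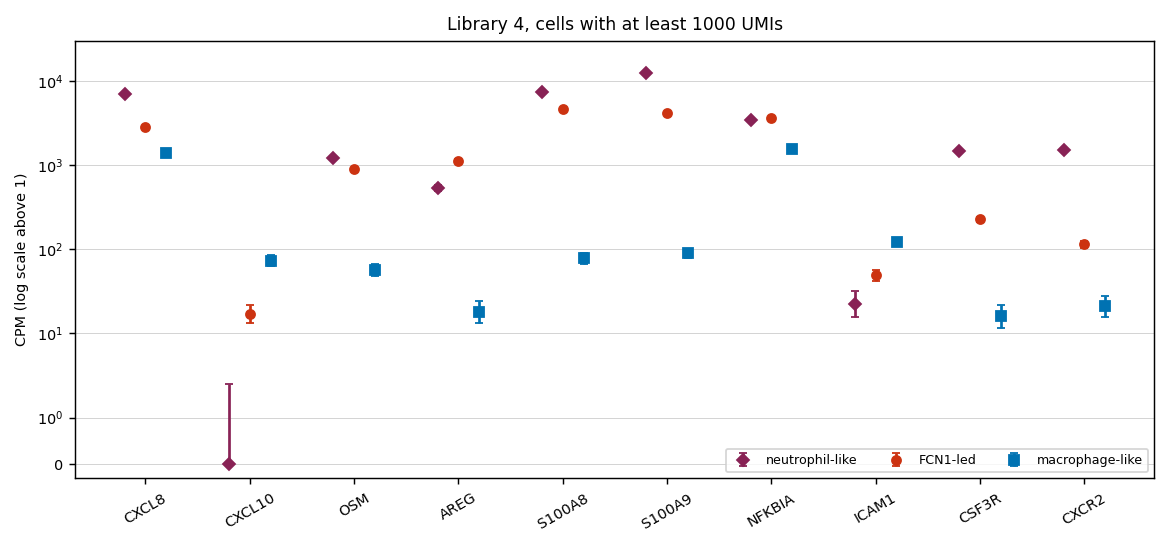
CPM of each member (vertical axis, log scale above 1 and linear below) in neutrophil-like, FCN1-led and macrophage-like cells of library 4 with at least 1000 UMIs, with 95% Poisson bars. CSF3R and CXCR2 stand at 1464 and 1525 CPM in neutrophil-like cells, CXCL10 at 0, and AREG is highest in FCN1-led cells at 1133 CPM.

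The transcript LOC108634769 took 9.39% of the UMIs of neutrophil-like cells, against 3.18% in FCN1-led and 3.43% in macrophage-like cells. Without it in the total, CXCL8 stood at 7783 CPM in neutrophil-like cells, against 2924 CPM in FCN1-led and 1446 CPM in macrophage-like cells. The order thus stayed the same. Free RNA of library 4 held 93.0 CPM of CSF3R and 36.7 CPM of CXCR2, or 313.6 and 123.9 CPM without LOC108634769, which is below the neutrophil-like levels in either case. FCN1-led cells had 235.5 CPM of CSF3R and 118.7 CPM of CXCR2 without that transcript, so free RNA counted the same way was above them for both receptors. Its part in the FCN1-led levels was not tested.

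Across 35 pairs of class and library, the members fell into profiles that were alike to different degrees. These correlations describe profiles that share libraries, depth and free RNA, and have no test. The closest pairs were S100A8 with CSF3R (Pearson r 0.97 on log2(CPM + 1)), CSF3R with CXCR2 (0.96) and S100A8 with CXCR2 (0.95). CXCL10 was apart from these, with 0.13 to S100A8 and -0.06 to AREG, and nearest to ICAM1 (0.68). Among all other genes with a symbol and at least 100 counts, the 3 profiles most like that of CXCL8 were those of IL1RN, the IL-1 receptor antagonist (0.97), MEFV, the pyrin gene (0.96), and PTAFR, the platelet-activating factor receptor (0.95). Those most like OSM were FCN1 (0.93), SLC11A1 (0.91) and MYBPH (0.91), and those most like AREG were LTF, lactoferrin (0.83), F5, coagulation factor V (0.81), and EREG, another EGF receptor ligand (0.81). For CXCL10 they were P2RY6, a nucleotide receptor (0.81), CXCL9, a related interferon-induced chemokine (0.77), and ARHGAP22 (0.74).

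FCN1 (0.95), MEFV (0.94) and ACOD1 (0.92) were nearest to S100A8, and MEFV (0.92) to S100A9. CSF3R was nearest to ACOD1 (0.96), NFE2 (0.93) and SDS (0.92), and CXCR2 to MEFV (0.94), SDS (0.93) and ACOD1 (0.90). NFKBIA was nearest to ADGRE5 (0.92), RHOG (0.91) and TNFAIP3 (0.90), a fellow feedback inhibitor of NF-kB. ICAM1 was nearest to MYOF (0.87), FHOD1 (0.85) and IER5L (0.84), none of which was among the nearest of another member. On chromosome 6 of ARS1.2, CXCL8, AREG and CXCL10 lie in this order with 14 and 16 genes between neighbours, and the 3 profiles differed: r was 0.63 for CXCL8 with AREG and 0.31 for CXCL8 with CXCL10.

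Other genes of the same pathways were read from 11 lists with 133 matched genes. In immune-like against other named cells, 6 of the 15 measured NF-kB subunits and feedback inhibitors were called higher and 0 lower, with TNFAIP3 at a median log2 ratio of 5.09, NFKBIZ at 3.94, BIRC3 at 3.38 and IER3 at 3.29, beside NFKBIA at 4.69. Of 7 measured inflammatory cytokine genes 3 were higher, IL1RN (7.00) and IL1A (5.94) among them, and IL33, an alarmin cytokine of tissue cells, was lower (-3.25). Of 10 measured interferon-induced genes 4 were higher, with ISG15 at 4.28. Of the 6 neutrophil-attracting chemokines related to CXCL8, 1 was matched by symbol and 0 had enough counts.

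Receptors and partners of the members split by cell. Of 11 measured, 4 were higher in immune-like cells: ITGB2 (7.26) and ITGAL (6.30), the chains of the integrin LFA-1 that binds ICAM1, CSF2RA (5.80) and TNFRSF1B (4.58). OSMR and LIFR, receptors that OSM can use and that are named here after their values were seen, were called lower. The list of EGF receptor ligands and receptors gave 0 higher and 3 lower of 5 measured genes. These 3 were receptor genes of the EGF receptor family, with ERBB2 at -3.63. Among all genes measured 11.7% were called lower, and no link between a ligand and its receptors was tested. Of 8 measured alarmin and S100 genes, 2 were higher, S100A4 (4.61) among them, and 3 lower, S100B (-3.57) and S100A16 (-3.53) among them. Of 5 other chemokine genes measured CXCL16 was higher (3.62) and CCL21 lower (-5.84). Immediate early and dissociation genes were higher in 6 of 16 and lower in 0, and their part in the members' levels was not tested.

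In FCN1-led against macrophage-like cells PTGS2, the inducible cyclooxygenase, was higher by 5.74, with 1172, 369.5 and 1448 CPM in FCN1-led cells of libraries 1, 3 and 4, against 11.9, 17.0 and 26.2 CPM in macrophage-like cells. S100A4 (2.34), ITGAL (2.17), SOD2 (2.13), TNFRSF1B (1.69) and the transcription factor CEBPD (1.45), were higher too. CXCL9, which like CXCL10 is induced by interferon, was lower (-5.71), with 0 counts in FCN1-led cells of each library, as was the scavenger receptor CD36 (-5.93). Immediate early and dissociation genes gave 0 calls of 15 there. In myeloid against lymphoid-like cells 6 of 7 inflammatory cytokine genes were higher, with IL1RN at 7.04, PTGS2 at 6.52, IL1B at 5.38 and CSF3, the ligand of CSF3R, at 5.01. The same comparison had 7 of 9 receptor genes higher, among them CSF2RA (6.13) and ITGAM (5.23), and HBEGF, an EGF receptor ligand like AREG, at 5.32.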

How the data were processed

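Pancreas cells of 4 goats were sequenced as single-cell RNA libraries. The authors deposited 1 unfiltered matrix of UMI counts, whole numbers with no scaling, that lists 6794880 barcodes per library. Cell Ranger 3.1.0 and Seurat 3.1.1 stand in the submitters' processing notes, whereas the header of the matrix names Cell Ranger 5.0.1. Genome build and annotation: not given in the sources used here. Of 27137 gene IDs, 27103 matched the RefSeq table of ARS1.2, used for names and gene order only.

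The members and lists were chosen with earlier results of these data known. A barcode counted as a cell when it had at least 500 genes and more UMIs than 0.1 times the 99th percentile of the 8000 deepest barcodes of the library. Scrublet, in scanpy 1.11.5, removed 77, 2, 111 and 4 barcodes of libraries 1 to 4. It marked under 0.5% in libraries 2 and 4, so how many doublets remain there is unknown, and an alternative removed the 5% with the highest scores. Counts were scaled to 10000 per cell, logged and reduced to 2000 variable genes and 30 components. With 15 neighbours they were clustered by Leiden at resolution 1 (igraph 0.11.9), with no batch correction. Members and list genes were left out of the clustering genes, and members stood in no marker set. Names came from 17 sets with 222 matched markers, needing 3 markers raised 2-fold and seen in 10% of cells. The limits on markers of a second lineage were set after seeing the data, and names are rebuilt here. The 406 cells of cluster 6 and the 112 of cluster 18 stayed unnamed.

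The planned comparison of neutrophil-like with macrophage-like cells was made with FCN1-led cells, as no cluster met that name, and the neutrophil-like cells at 1000 UMIs were also added after seeing the data. Libraries are not tied to animals, so no test was run and no p-value is given: calls, as defined in the report, describe libraries. Besides the members, the 3 genes most alike in profile are named per member (for S100A9 only the nearest is reported here), and from the lists up to 20 called genes with the highest absolute median in the immune comparison and up to 10 in each other. TMM factors came from edgeR 4.0.16. The alternatives were a minimum of 1000 UMIs, the doublet setting, resolution 2, TMM scaling, centring on the median gene, 10 CPM as pseudocount, no minimum of counts, the mean of the cells' own CPM, 10% free RNA subtracted, a minimum of 10 cells, the unnamed clusters added, and each library left out. Sequences of the members were not used here.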

Additional observations from a re-analysis of the deposited data

Results flagged for a closer look

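A cluster left unnamed, cluster 6, lay outside the comparisons and held members at levels above those of endocrine-like cells of the same library. It had 28 cells in library 1 and 374 in library 4, with 10 of 20 endocrine markers and 5 of 15 neutrophil markers raised. In library 1, CXCL8 had 201.3 CPM in these cells, against 0.724 CPM in endocrine-like cells. S100A8 had 652.8 CPM, against 0.161 CPM, S100A9 667.2 CPM, against 0.0805 CPM, and NFKBIA 376.7 CPM, against 41.7 CPM. At resolution 2, a split added after seeing the data, 4 of the 28 cells fell into an unnamed cluster with 7 of 15 neutrophil, 12 stellate and 0 endocrine markers raised, and these 4 cells held all the CXCL8, S100A8 and S100A9 counts. The 20 cells that fell into an endocrine-like cluster had 0 counts of these 3 genes.

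In library 4 each member stood above its endocrine-like level in cluster 6, which is the rule by which these values were flagged. The share of all genes higher in cluster 6 was not counted, so the values are a description. CXCL8 had 413.9 CPM, against 12.6 CPM in endocrine-like cells, S100A8 446.5 CPM, against 8.96 CPM, and S100A9 567.4 CPM, against 16.2 CPM. OSM had 93.9 CPM, against 3.20 CPM, AREG 86.6 CPM, against 8.72 CPM, and NFKBIA 448.2 CPM, against 46.4 CPM. The receptors CSF3R, at 53.3 CPM against 1.36 CPM, and CXCR2, at 51.0 CPM against 2.16 CPM, were higher too. CXCL10 had 9.88 CPM, against 0 CPM, and ICAM1 26.0 CPM, against 0.320 CPM. The pooled levels again cover unlike cells. The 102 cells in the unnamed cluster of resolution 2 had 833.0 CPM of CXCL8, 749.3 CPM of S100A8, 87.8 CPM of CSF3R and 82.4 CPM of ICAM1. The 264 cells in the endocrine-like cluster had 279.8, 348.7, 41.8 and 6.30 CPM of these genes, each above the level in endocrine-like cells of library 4.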

How the results depend on the processing

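The counts of members called kept within 1.5 times of their value in 126 of 134 recomputations. For the members' median ratios the call was unchanged in 641 of 670, with 21 calls gained, 7 lost and 1 reversed. Direction was checked only for members with a call, so uncalled members could change sign among the 641. CXCL8 in ductal-like against acinar-like cells, for instance, went from 0.44 to -1.01 on centring. The reversal was NFKBIA in ductal-like against acinar-like cells with TMM scaling (-0.18), where the members higher fell to 1, ICAM1, as they did on centring. With a minimum of 10 cells, which brings in library 4, they fell to 1 too, NFKBIA. In FCN1-led against macrophage-like cells the members higher became 7 with a minimum of 1000 UMIs. In endothelial-like against stellate-like cells they became 1 with no minimum of counts. With 1 library left out at a time, the members higher and lower ranged from 7 to 8 and 0 to 0 for immune-like cells, 4 to 5 and 1 to 2 for FCN1-led cells, 9 to 10 and 0 to 0 for myeloid cells, 0 to 1 and 0 to 1 for endothelial-like cells, and 2 to 3 and 0 to 0 for ductal-like cells. ICAM1 in ductal-like cells lost its call with 1000 UMIs (3.14) and with 10 cells (4.65), and CSF3R in myeloid cells with 1000 UMIs (4.28). The causes were not tested. The neutrophil-like cells exist only with the 1000 UMI minimum. Relative to the median gene, AREG (-0.15) and ICAM1 (-0.14) in these cells no longer passed log2 -1 against FCN1-led cells.

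Scaling moved the split of all genes higher and lower. It was 562 and 1550 for immune-like cells and 417 and 2367 with TMM, 1185 and 372 for myeloid cells and 954 and 504 on centring, and 448 and 671 for endothelial-like cells and 339 and 895 with TMM. For ductal-like cells it was 2999 and 89, then 428 and 696 with TMM and 508 and 579 on centring, a shift of -1.96 and -1.76. Each ratio was taken within a library. No paired test was run, because the libraries are not tied to animals.

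The receptors are limited by depth: CXCR2 in libraries 2 and 3, and CSF3R in library 2, had too few counts to order FCN1-led and macrophage-like cells. Names and shares depend on the cell threshold. Free RNA held more of the members in library 4, which had the most immune-like cells, than in the other libraries, except for CXCL10 and ICAM1. Without LOC108634769 in the total, CXCL10 too was highest in library 4, at 15.5 CPM against 6.43, 1.91 and 7.68 CPM in libraries 1 to 3. That level rested on 4 counts.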
